A study of Mus musculus with 24 samples.

Results

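The hepatic lipid, anion and sterol transporters are 10 genes, Abcb4, Abcg5, Abcg8, Abcc2, Abcg2, Abcc3, Slco1a1, Slco1a4, Slco1b2 and Slco2b1, picked by their symbols. They are 10 of the 18171 genes of the deposited expression table, and all 10 passed the filter on low values that left 10532 genes for testing. The table holds mouse liver RNA-seq of 24 libraries from C57BL/6 mice. L2d13 livers came from mice that overexpressed the form the labels write as L2 13, or L2 delta13 in the design text, with 6 libraries in set 2 and 6 in set 4. Wild-type (WT) livers gave 6 libraries in set 2 and 6 in set 4. A set is the digit 2 or 4 in the sample names, and what it stands for is not given in the sources used here. The age and sex of the mice and the promoter that drove the overexpressed gene are not given in the sources used here, and nothing says whether any liver was pooled. P-values therefore measure the spread between these libraries.

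A hepatocyte faces blood on its basolateral side and bile on its canalicular side, and these transporters work on one side or the other. On the canalicular side, ABC (ATP-binding cassette) pumps spend ATP to move phospholipid, sterols and conjugated anions into bile: Abcb4 (Mdr2) flips phosphatidylcholine, Abcg5 and Abcg8 join into a single sterol exporter, Abcc2 (Mrp2) exports bilirubin glucuronides and other conjugates, and Abcg2 (Bcrp) exports sulphated conjugates, urate and many drugs. Abcc3 (Mrp3) sends conjugates back to blood across the basolateral membrane. The Slco genes encode organic anion transporting polypeptides of the basolateral membrane, which take up bile salts, steroid conjugates, thyroid hormone, bilirubin and drugs from blood without spending ATP.

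Shown first are 3 promoter windows, chosen because 2 of the results below concern neighbouring genes, the pair that makes the sterol exporter and the pair Slco1a1 and Slco1a4. Each runs from 250 bases before to 50 bases after a RefSeq start site (GRCm38.p6), 5' to 3' on the gene's own strand. Capitals mark matches to the motifs searched on both strands. For the TATA box this was TATAAA. For the E-box it was CACGTG, and for nuclear receptors AGGTCA. The antioxidant response element was searched as TGACNNNGC and the STAT site as TTCNNNGAA. The box named after its letters was searched as CCAAT. For the GATA factors the letters were AGATAA. The last of these was added after the Abcg8 window had been read. AGGTCA on the minus strand can overlap TGACNNNGC, which it does in none of the windows shown.
Abcg8, chr17:84682871-84683170, plus strand: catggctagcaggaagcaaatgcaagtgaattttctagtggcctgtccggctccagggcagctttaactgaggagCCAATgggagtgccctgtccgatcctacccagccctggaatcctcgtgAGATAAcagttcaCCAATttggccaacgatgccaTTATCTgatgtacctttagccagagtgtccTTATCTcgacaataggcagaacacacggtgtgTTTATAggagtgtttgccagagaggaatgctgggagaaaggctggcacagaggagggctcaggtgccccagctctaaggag
Slco1a1, chr6:141946913-141947212, minus strand: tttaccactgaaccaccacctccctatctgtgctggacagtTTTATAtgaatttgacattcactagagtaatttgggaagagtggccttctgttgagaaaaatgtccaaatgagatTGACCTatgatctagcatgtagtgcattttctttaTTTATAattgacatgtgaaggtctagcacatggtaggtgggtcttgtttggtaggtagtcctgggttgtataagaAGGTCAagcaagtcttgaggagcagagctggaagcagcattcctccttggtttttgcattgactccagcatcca
Slco1a4, chr6:141856171-141856470, minus strand: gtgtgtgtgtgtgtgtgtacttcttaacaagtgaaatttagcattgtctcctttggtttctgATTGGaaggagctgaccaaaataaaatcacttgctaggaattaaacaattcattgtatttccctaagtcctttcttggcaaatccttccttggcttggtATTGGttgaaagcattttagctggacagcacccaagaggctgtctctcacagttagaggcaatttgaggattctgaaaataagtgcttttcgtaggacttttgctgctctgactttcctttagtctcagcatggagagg

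The Abcg8 window is shown because it is also most of the Abcg5 promoter. The start sites of these 2 windows lie 110 bases apart and face away from each other. Of the 300 bases of each window, 209 are an identical stretch of chromosome 17 read on opposite strands. RefSeq also gives Abcg8 another start site at 84676302, inside the Abcg5 gene, which is the gene start given below. The window of that site held none of the motifs and is not shown. Counted with the Abcg8 start site as position 1, the window held CCAAT at positions -175 and -114, AGATAA at -127 and, on the minus strand, at -93 and -63, and TATAAA on the minus strand at -31, which is position -84 of the Abcg5 window. Slco1a1 and Slco1a4 are neighbours on chromosome 6 on the same strand, and their windows held no motif in common. The Slco1a1 window held AGGTCA at -24 and, on the minus strand, at -134, with TATAAA on the minus strand at -209 and -99. The Slco1a4 window held CCAAT on the minus strand at -188 and -89. Of 32851 mouse promoter windows, 37.4% held CCAAT, 16.3% AGGTCA, 13.6% TATAAA, 12.4% TGACNNNGC, 11.2% AGATAA, 8.30% TTCNNNGAA and 7.15% CACGTG. Such matches describe the letters only. Windows were found for 9 of the 10 genes, and the one not found is Abcc3.

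The 10 genes lie as follows in GENCODE M21 (GRCm38). Abcb4 (gene 18670) is on chromosome 5 from 8893717 to 8959231, plus strand. Abcg5 (gene 27409) is on chromosome 17 from 84658234 to 84683011, minus strand, and Abcg8 (gene 67470) from 84676302 to 84700333, plus strand. Abcc2 (gene 12780) is on chromosome 19 from 43782192 to 43840740, plus strand, and Abcc3 (gene 76408) on chromosome 11 from 94343295 to 94392997, minus strand. Chromosome 6 holds Abcg2 (gene 26357) from 58584523 to 58695676, plus strand, and, close together, Slco1b2 (gene 28253) from 141629518 to 141686646, plus strand, Slco1a4 (gene 28250) from 141805440 to 141856199, minus strand, and Slco1a1 (gene 28248) from 141907282 to 141946962, minus strand. Slco2b1 (gene 101488) is on chromosome 7 from 99657804 to 99711340, minus strand. Exons of Abcg5 and Abcg8 overlap on opposite strands by 82 bases, 3.02% of the exon bases of Abcg5 and 2.19% of those of Abcg8. Slco2b1 shares 7.91% of its exon bases with the antisense gene Gm15635 and 1.31% with Gm34280. The strand used in counting is not given in the sources used here, so reads from these stretches cannot be told apart. Of all stretches of 50 bases of a transcript, 3.42% for Abcb4, 2.73% for Slco1a4, 2.26% for Slco1a1 and 0.160% for Abcc2 also occur in another gene, and 0 for the other 6.

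L2 is taken here to mean Loxl2, a lysyl oxidase-like enzyme, which no label says outright. Loxl2 ran from 0.830 to 2.26 FPKM in L2d13 livers and from 0.360 to 1.26 FPKM in WT livers. Gm21451, which GENCODE classes as a pseudogene and which lies near Loxl2, ran in L2d13 livers from 40.6 to 223 FPKM in set 2 and from 106 to 266 FPKM in set 4, against 0.0300 to 1.27 FPKM in WT livers of set 2 and 0.0300 to 0.240 FPKM in WT livers of set 4, so every library was on the side its genotype label gives. Markers of hepatocytes summed to between 27700 and 59220 FPKM in every library, and 4 markers of kidney proximal tubule to at most 0.480 FPKM. Apart from the rest stood 2 libraries. L2d13 set 2 replicate 3 and WT set 2 replicate 6 had mean correlations of 0.933 and 0.932 with the other libraries, against 0.957 to 0.976 for the other 22. Cholangiocyte markers summed to 123 FPKM in that L2d13 library, against 13.1 to 26.9 FPKM in the other L2d13 libraries of set 2, and to 74.5 FPKM in that WT library, against 11.5 to 26.9 FPKM in the other WT libraries of set 2. In 6 libraries 1 sequenced fragment was worth more FPKM than in the other 18, as judged from the steps between low values: 1.05 to 1.29 times the median library, against 0.960 to 1.04. They are 1 L2d13 and 5 WT libraries, namely those that stood apart and WT set 4 replicates 9 to 12, so this feature and the genotype can hardly be told apart in set 4. A seventh, L2d13 set 4 replicate 11, lay at 1.04, next to the lowest of the 6. Major urinary protein (Mup) genes made up 5.31% to 10.6% of the FPKM sum in L2d13 libraries of set 2, against 11.2% to 22.75% in WT libraries. In set 4 they made up 10.1% to 23.2% in L2d13 libraries, against 11.7% to 33.6% in WT libraries. WT set 4 replicates 9 to 12 had 23.8% to 33.6%. The part of this share in the transporter values was not tested.

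Levels are given as FPKM, fragments scaled by transcript length and by the total mapped in the library, which allows genes of different length to be compared. In L2d13 livers the means over 12 libraries ran, from high to low, Slco1b2 with 193 ± 30.3 (SD), Abcb4 with 142 ± 26.6, Abcc3 with 65.5 ± 14.1, Slco1a1 with 58.5 ± 18.01, Abcc2 with 47.8 ± 10.3, Slco2b1 with 38.5 ± 6.92, Slco1a4 with 27.3 ± 9.41, Abcg2 with 26.2 ± 3.24, Abcg5 with 23.2 ± 8.95 and Abcg8 with 19.2 ± 3.58 FPKM. The WT order over 12 libraries was Slco1b2 with 203 ± 68.4, Abcb4 with 106 ± 25.2, Slco1a1 with 84.0 ± 22.1, Abcc3 with 69.2 ± 19.0, Abcc2 with 49.5 ± 18.2, Abcg5 with 32.4 ± 12.6, Slco2b1 with 30.4 ± 3.99, Abcg2 with 27.0 ± 7.01, Slco1a4 with 22.2 ± 11.97 and Abcg8 with 21.5 ± 6.21 FPKM. Slco1b2 and Abcb4 led in both genotypes. Neighbours in the order that differed by less than the SD of either gene were, in L2d13 livers, Abcc3 and Slco1a1, Slco1a4 and Abcg2, and Abcg2 and Abcg5, and, in WT livers, Slco1a1 and Abcc3 and each neighbouring pair among the 5 lowest genes. The other neighbours differed by more than at least 1 of their SDs.

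**Figure D1:**
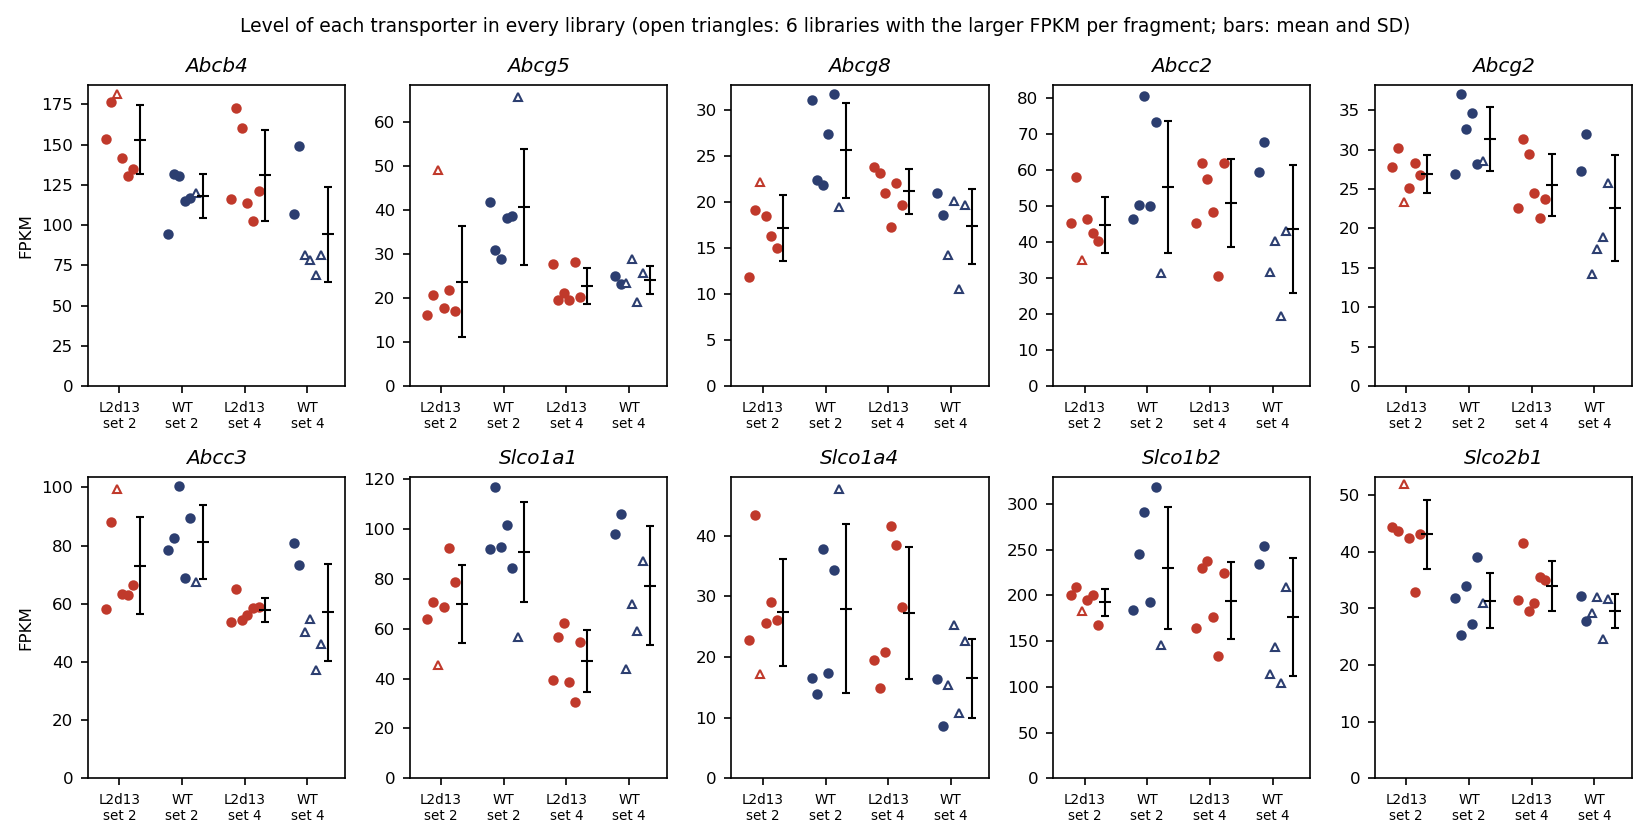
FPKM of each transporter (vertical axis, from 0) in every library, by genotype and set; red marks L2d13 and blue WT, open triangles mark the 6 libraries in which 1 fragment is worth more FPKM, and bars give the mean and SD of the 6 libraries. The ranges of L2d13 and WT overlap in both sets for all 10 genes, and the 4 open WT triangles of set 4 lie below the 2 filled WT circles for Abcb4, Abcc2, Abcg2, Abcc3, Slco1a1 and Slco1b2.

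Between the genotypes, Abcb4 and Slco2b1 rose in L2d13 livers, Slco1a1 and Abcg5 fell, and the other 6 genes did not pass the test over both sets. In set 2 alone Slco2b1 rose and Abcg5 and Abcg8 fell, and in set 4 alone Abcb4 rose and Slco1a1 fell. Differences are those of log2(FPKM + 1), L2d13 minus WT, each with its SE from limma, and p-values were adjusted over all 10532 genes by the method of Benjamini and Hochberg and called under 0.05. Over both sets 30.8% of all tested genes were called, 25.9% higher and 4.86% lower, against 2 and 2 of the 10 transporters. In set 2, 15.1% of all genes were called (13.0% higher, 2.13% lower), against 1 transporter higher and 2 lower. In set 4, 13.3% were called (10.3% higher, 2.97% lower), against 1 and 1. Over both sets the median log2 difference was 0.12 for all tested genes and -0.00 for the 10 transporters, in set 2 it was 0.16 and -0.21, and in set 4 it was 0.08 and 0.20. Median-of-ratios scaling brought the median of all genes over both sets to 0.00 and their calls from 2730 higher and 512 lower to 1215 higher and 1164 lower, and a rescaling of each library to a fixed sum (TPM) brought it to 0.22. No transporter had L2d13 libraries wholly above or below the WT libraries in either set, which held for 5.44% of all genes on the higher and 0.560% on the lower side in set 2, and for 4.86% and 1.70% in set 4.

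**Figure D2:**
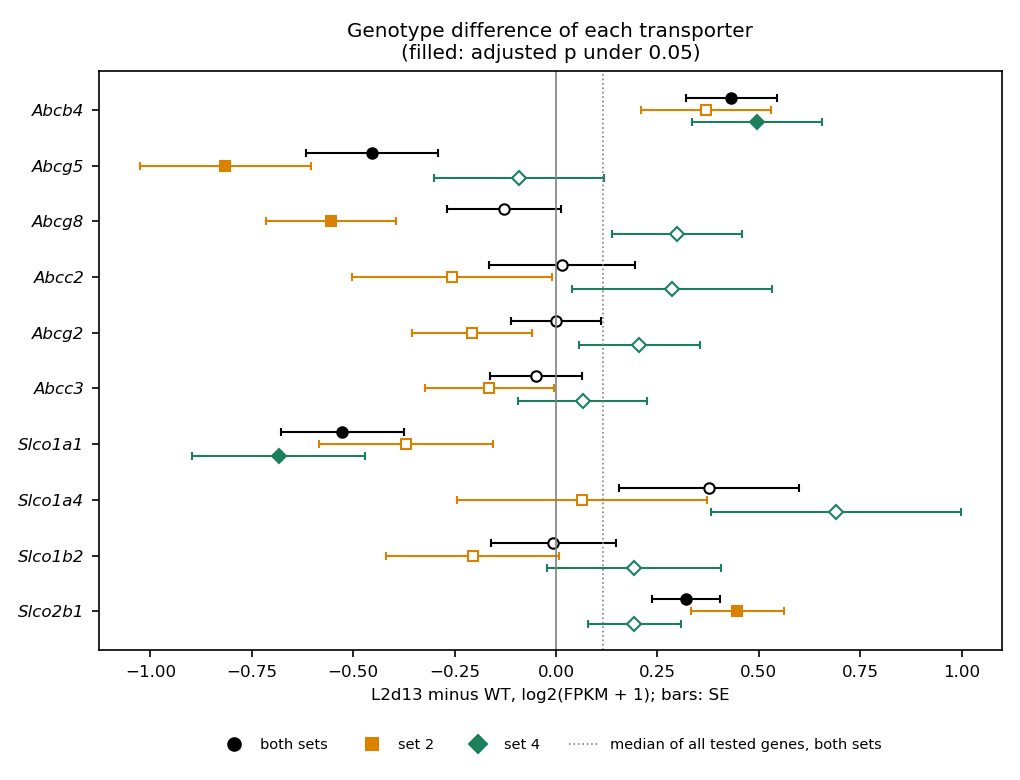
Difference of log2(FPKM + 1), L2d13 minus WT (horizontal axis), for each transporter over both sets (12 against 12 libraries) and in each set (6 against 6), with bars of 1 SE and filled marks at an adjusted p under 0.05; the dotted line is the median of all tested genes over both sets, 0.12. Abcb4 and Slco2b1 lie right of the line, Abcg5 and Slco1a1 left of it, and the set 2 and set 4 marks of Abcg8 lie on opposite sides of 0.

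Abcb4, the phospholipid flippase whose product lets bile salts form mixed micelles, rose in L2d13 livers over both sets. In set 2 the lowest, median and highest L2d13 libraries had 131, 148 and 182 FPKM, against 94.3, 118 and 132 FPKM in WT libraries. In set 4 they had 103, 119 and 173 FPKM, against 68.9, 81.3 and 149 FPKM in WT libraries. All 12 L2d13 libraries lay above the WT mean of their set, and the ranges overlapped in both sets. The log2 difference was 0.43 ± 0.11 over both sets (limma, adjusted p = 0.00507), a fold of 1.35. It was 0.50 ± 0.16 in set 4 (adjusted p = 0.0412) and 0.37 ± 0.16 in set 2, which did not pass (adjusted p = 0.119). The 2 WT libraries of set 4 outside the 6 named above had 107 and 149 FPKM, while the 4 inside had 68.9 to 81.3 FPKM. Without the 6 libraries the difference over both sets was 0.21 (adjusted p = 0.215) and that in set 4 was 0.03 (adjusted p = 0.952). The call in set 4 was also lost without L2d13 set 4 replicate 8, 9 or 12 or WT set 4 replicate 9, 10, 11 or 12, each left out alone, with adjusted p up to 0.117, with median-of-ratios scaling (0.39, adjusted p = 0.06) and with no filter on low values (adjusted p = 0.0646).

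The 2 genes of the sterol exporter, which pumps cholesterol and plant sterols into bile, both fell in L2d13 livers of set 2, and neither passed in set 4. Abcg5 had 16.1, 19.2 and 49.0 FPKM in the lowest, median and highest L2d13 libraries of set 2, against 28.8, 38.3 and 65.7 FPKM in WT libraries. The highest value of each group is the library that stood apart. Without these, every L2d13 library of set 2 lay below every WT library. The libraries that stood apart were chosen after the data had been seen. How many of all genes would separate in this way was not counted. In set 4 Abcg5 had 19.5, 20.7 and 28.2 FPKM in L2d13 libraries, against 19.15, 24.1 and 28.7 FPKM in WT libraries, with wide overlap. The log2 difference of Abcg5 was -0.82 ± 0.21 in set 2 (limma, adjusted p = 0.0116), a fold of 0.568, and -0.09 ± 0.21 in set 4 (adjusted p = 0.805). Over both sets it was -0.45 ± 0.16 (adjusted p = 0.0363), with 9 of 12 L2d13 libraries below the WT mean of their set. Without the libraries that stood apart the difference over both sets was -0.46 (adjusted p = 0.00525) and that in set 2 was -0.90 (adjusted p = 0.000143). The call over both sets was lost without L2d13 set 2 replicate 1, 2, 4, 5 or 6, WT set 2 replicate 1, 4 or 6 or WT set 4 replicate 10, each left out alone, with adjusted p up to 0.0678, and so it was with TPM scaling (-0.35, adjusted p = 0.0631) and with no filter on low values (adjusted p = 0.0621).

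Abcg8, the partner of Abcg5, had 11.9, 17.4 and 22.2 FPKM in the lowest, median and highest L2d13 libraries of set 2, against 19.45, 24.9 and 31.7 FPKM in WT libraries. In set 4 it had 17.3, 21.5 and 23.8 FPKM in L2d13 libraries, against 10.6, 19.1 and 21.0 FPKM in WT libraries. L2d13 libraries were thus the lower ones in set 2, all 6 below the WT mean, while in set 4 5 of 6 lay above it. The log2 difference was -0.56 ± 0.16 in set 2 (limma, adjusted p = 0.0221), a fold of 0.681, against 0.30 ± 0.16 in set 4 (adjusted p = 0.215) and -0.13 ± 0.14 over both sets (adjusted p = 0.519). TPM scaling took the call in set 2 away (-0.47, adjusted p = 0.0665), as did leaving out L2d13 set 2 replicate 1 or WT set 2 replicate 1 or 4, with adjusted p up to 0.0611. Without the 6 libraries the difference over both sets was -0.41 (adjusted p = 0.0375), and that in set 4 was 0.09.

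Whether the genotype difference itself differed between the sets was tested for every gene. For Abcg8 the set 4 difference exceeded the set 2 difference by 0.85 ± 0.23, with an unadjusted limma p of 0.000913 that came to 0.205 after adjustment over all genes. For Abcg5 the excess was 0.72 ± 0.30, with an unadjusted limma p of 0.0226 and an adjusted p of 0.592. None of the 10 passed, against 16 of 10532 genes (0.152%) in all, 0.0285% higher and 0.123% lower. At an unadjusted p under 0.05 stood 747 genes (7.09%), these 2 among them.

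Since a start site of Abcg8 lies beside that of Abcg5, as shown above, the ratio of the 2 genes in each library was also taken. The Abcg5 level per Abcg8 level, both in FPKM, had a lowest, median and highest value of 0.958, 1.23 and 2.21 in L2d13 libraries of set 2, against 1.21, 1.36 and 3.38 in WT libraries. In set 4 it was 0.844, 1.08 and 1.27 in L2d13 libraries, against 1.18, 1.37 and 1.81 in WT libraries. The ratios above 2 belong to the libraries that stood apart, and without these the highest in set 2 were 1.35 in L2d13 and 1.39 in WT livers. Within groups Abcg5 and Abcg8 varied together with a Pearson's r of 0.72 over the 22 other libraries and 0.42 over all 24.

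**Figure D3:**
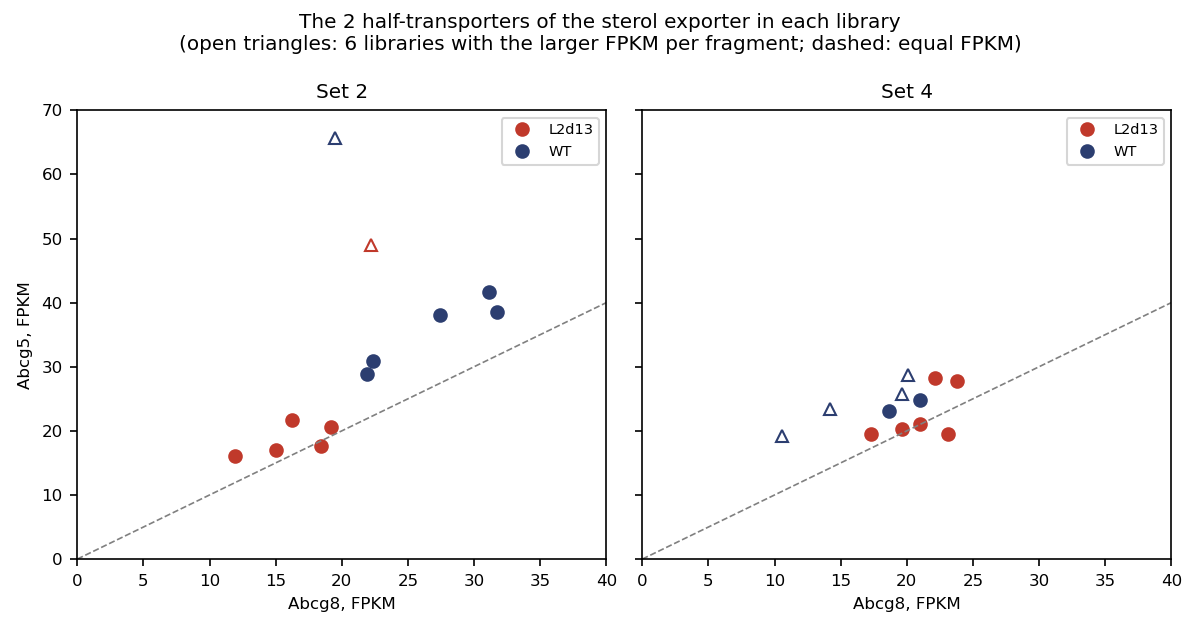
Abcg5 against Abcg8, both in FPKM, in each library of set 2 (left) and set 4 (right); red marks L2d13, blue WT, open triangles the 6 libraries in which 1 fragment is worth more FPKM, and the dashed line equal levels. In set 2 the filled red circles lie below the filled blue ones along both axes, a separation not counted for all genes. The 2 open triangles of set 2 lie far above the line at 49.0 and 65.7 FPKM of Abcg5. In set 4 the groups mix along each axis, while the ratio of Abcg5 to Abcg8 ran from 0.844 to 1.27 in L2d13 and from 1.18 to 1.81 in WT libraries.

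The canalicular anion pumps Abcc2 and Abcg2 and the basolateral Abcc3 did not pass the test between the genotypes. Abcc2, which carries bilirubin glucuronides into bile, had 35.0, 44.0 and 58.1 FPKM in the lowest, median and highest L2d13 libraries of set 2, against 31.3, 50.3 and 80.8 FPKM in WT libraries, and 30.5, 52.9 and 62.0 FPKM in L2d13 libraries of set 4, against 19.5, 41.7 and 67.9 FPKM in WT libraries. Its log2 difference over both sets was 0.01 ± 0.18 (limma, adjusted p = 0.963), with an interval of 2 SE from -0.34 to 0.37. WT libraries spread more widely than L2d13 libraries in both sets.

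Abcg2 levels were 23.3, 27.3 and 30.2 FPKM in the lowest, median and highest L2d13 libraries of set 2, against 27.0, 30.6 and 37.1 FPKM in WT libraries. In set 4 they were 21.3, 24.1 and 31.35 FPKM in L2d13 libraries, against 14.2, 22.4 and 31.9 FPKM in WT libraries. The difference over both sets was -0.00 ± 0.11 on the log2 scale (adjusted p = 0.996; 2 SE from -0.22 to 0.22). It was -0.21 in set 2 and 0.21 in set 4, neither past the threshold.

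Abcc3, which returns glucuronides to blood, had 58.3, 64.9 and 99.5 FPKM in the lowest, median and highest L2d13 libraries of set 2, against 67.5, 80.7 and 101 FPKM in WT libraries, and 53.9, 57.3 and 65.3 FPKM in L2d13 libraries of set 4, against 37.1, 52.5 and 80.9 FPKM in WT libraries. Its log2 difference over both sets was -0.05 ± 0.11 (limma, adjusted p = 0.776; 2 SE from -0.28 to 0.18). Without the 6 libraries it was -0.35 (adjusted p = 0.00902). In WT livers of set 4 the 2 libraries outside those 6 had 73.3 and 80.9 FPKM of Abcc3 and the 4 inside 37.1 to 54.6 FPKM.

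Of the uptake transporters, Slco1a1 fell, Slco2b1 rose, and Slco1b2 and Slco1a4 did not pass the test. Slco1a1 (Oatp1a1), a rodent organic anion transporter that is more abundant in livers of male than of female mice, had 45.3, 69.7 and 92.3 FPKM in the lowest, median and highest L2d13 libraries of set 2, against 56.8, 92.3 and 117 FPKM in WT libraries. L2d13 libraries of set 4 had 30.7, 47.1 and 62.3 FPKM, against 43.7, 78.6 and 106 FPKM in WT libraries. In 11 of 12 L2d13 libraries it lay below the WT mean of the set. The log2 difference was -0.53 ± 0.15 over both sets (limma, adjusted p = 0.0107), a fold of 0.694. In set 4 it was -0.68 ± 0.21 (adjusted p = 0.0358), and in set 2 -0.37 ± 0.21, which did not pass (adjusted p = 0.251). The difference between the sets was -0.31 ± 0.30 (adjusted p = 0.856). TPM scaling took the call over both sets away (-0.42, adjusted p = 0.0533), and leaving out L2d13 set 4 replicate 7, 10 or 11 or WT set 4 replicate 7, 8, 10 or 12 alone took away that in set 4, with adjusted p up to 0.0794. The call in set 4 was also lost with quantile normalization (-0.68, adjusted p = 0.0529), TPM scaling (-0.57, adjusted p = 0.109) and no filter on low values (adjusted p = 0.0635). Without the 6 libraries the fall in set 4 was -1.14 (limma, adjusted p = 0.00567), which rests on 2 WT libraries of that set. These had 97.9 and 106 FPKM, while the 4 WT libraries left out had 43.7 to 87.2 FPKM.

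Slco2b1 (Oatp2b1), which takes up steroid sulphates and many drugs, had 32.9, 43.4 and 51.8 FPKM in the lowest, median and highest L2d13 libraries of set 2, against 25.2, 31.4 and 39.0 FPKM in WT libraries. In set 4 it had 29.45, 33.2 and 41.6 FPKM in L2d13 libraries, against 24.6, 30.4 and 32.2 FPKM in WT libraries. In 11 of 12 L2d13 libraries it lay above the WT mean of the set. The log2 difference was 0.32 ± 0.08 over both sets (limma, adjusted p = 0.00561), a fold of 1.25, with 0.45 ± 0.11 in set 2 (adjusted p = 0.0114) and 0.19 ± 0.11 in set 4 (adjusted p = 0.271). With median-of-ratios scaling it was 0.18 over both sets and 0.27 in set 2, and neither passed (adjusted p = 0.0946 and 0.147). Quantile normalization also took the call in set 2 away (0.31, adjusted p = 0.0953).

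Slco1b2 (Oatp1b2), the main hepatic uptake transporter of its subfamily in mice for unconjugated bile acids and bilirubin glucuronides, had 167, 198 and 209 FPKM in the lowest, median and highest L2d13 libraries of set 2, against 146, 219 and 319 FPKM in WT libraries, and 134, 200.3 and 238 FPKM in L2d13 libraries of set 4, against 104, 176 and 254 FPKM in WT libraries. Its log2 difference over both sets was -0.01 ± 0.15 (limma, adjusted p = 0.980; 2 SE from -0.31 to 0.30). As the SDs above show, WT libraries were more than 2 times as spread out as L2d13 libraries over both sets. By set, the SDs of WT and L2d13 libraries were 66.9 and 14.9 FPKM in set 2, against 64.1 and 42.4 FPKM in set 4. In WT livers of set 4 the 2 libraries outside the 6 had 234 and 254 FPKM and the 4 inside 104 to 209 FPKM.

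Slco1a4 (Oatp1a4), which carries bile salts and the heart drug digoxin, had 17.15, 25.9 and 43.3 FPKM in the lowest, median and highest L2d13 libraries of set 2, against 13.9, 25.8 and 47.7 FPKM in WT libraries. L2d13 libraries of set 4 had 14.9, 24.5 and 41.5 FPKM, against 8.60, 15.8 and 25.3 FPKM in WT libraries. The log2 difference over both sets was 0.38 ± 0.22, which did not pass (limma, adjusted p = 0.203). Without the libraries that stood apart it was 0.54 and passed (adjusted p = 0.0451). Within groups its Pearson's r with its neighbour Slco1a1 was -0.31 over 24 libraries.

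Between the sets, over both genotypes, only Abcc3 of the 10 passed. All 10 differences, set 4 minus set 2, were below 0, although those of Abcg8 and Abcc2 were above 0 with median-of-ratios scaling and quantile normalization. The median of all tested genes was also below 0, at -0.11, against -0.30 for the 10 transporters. With median-of-ratios scaling these medians were 0.006 and -0.16, and with quantile normalization 0.004 and -0.19. Abcc3 averaged 57.5 FPKM in set 4 and 77.2 FPKM in set 2, a log2 difference of -0.42 ± 0.11 (limma, adjusted p = 0.0294). Of all genes 6.09% were called between the sets, 5.53% lower and 0.560% higher in set 4. The Abcc3 call was lost with median-of-ratios scaling (-0.28, adjusted p = 0.110), with quantile normalization (-0.34, adjusted p = 0.0894) and without the 6 libraries (-0.18, adjusted p = 0.300). It was also lost without L2d13 set 2 replicate 2, L2d13 set 4 replicate 7, WT set 2 replicate 2 or WT set 4 replicate 11, with adjusted p up to 0.0559. Beside it, 4 of 5 endothelial, 4 of 4 tested stellate and 5 of 6 Kupffer cell markers were lower in set 4, and their part in the Abcc3 difference was not tested.

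Within groups, after the mean of each group was taken away, some transporters varied together from library to library. Over the 24 libraries Abcc2 and Slco1b2 had the highest Pearson's r of the 45 pairs, 0.92, followed by Abcg2 and Slco1a1 with 0.81 and Slco1a1 and Slco1b2 with 0.74. Without the libraries that stood apart these were 0.92, 0.84 and 0.73. Abcb4 had an r of 0.78 with Abcc2, 0.78 with Abcg2 and 0.77 with Slco1b2 over those 22 libraries. Slco1a4 had none above 0.38 with any other member, and Abcg5 none above 0.26 other than with Abcg8, over the same 22. All libraries share the scaling by which FPKM is made, and genes with the same scaling error would vary together, so these values are descriptions.

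**Figure D4:**
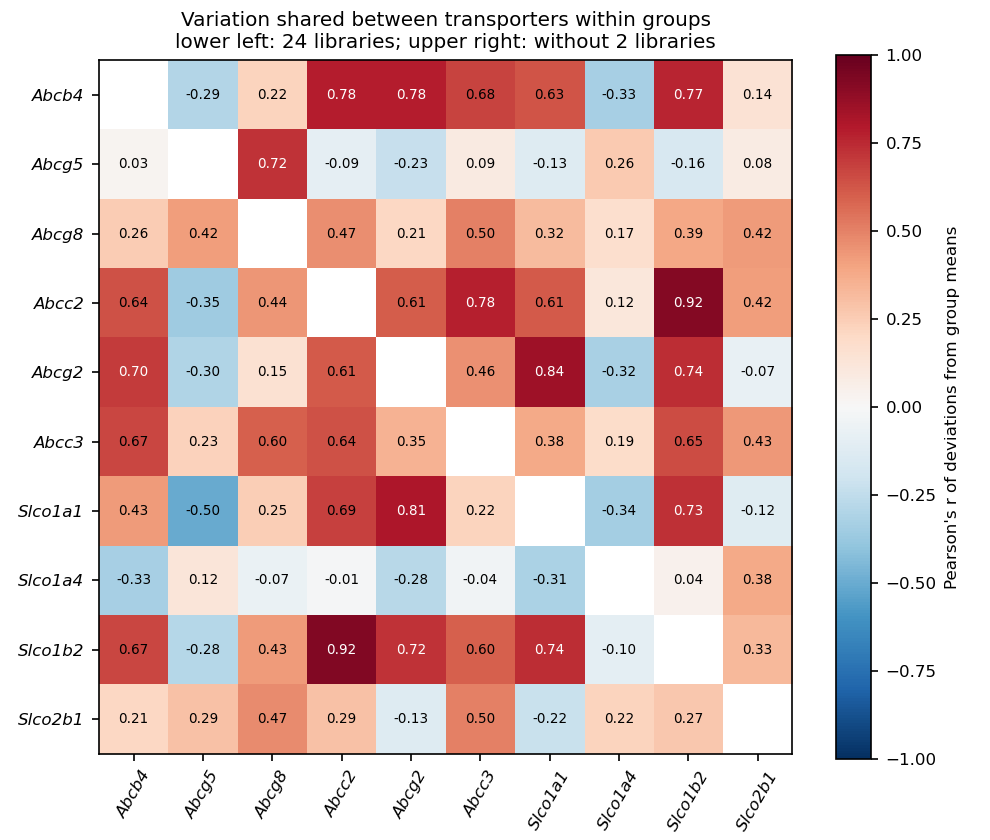
Pearson's r between each pair of transporters of log2(FPKM + 1) after subtraction of group means, over 24 libraries (lower left) and over 22 without the 2 that stood apart (upper right); the colour runs from -1 in blue to 1 in red. The reddest squares lie among Abcb4, Abcc2, Abcg2, Abcc3, Slco1a1 and Slco1b2. Some pairs of these are paler, such as Abcc3 with Slco1a1 at 0.22 over 24 and 0.38 over 22 libraries. Abcg5 with Abcg8 is at 0.42 over 24 and 0.72 over 22 libraries.

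The tested genes most like each transporter by the same measure were also read, with predicted genes and clone names passed over. Over 24 libraries these were Acot12 for Abcc2 with an r of 0.95 and Rpa1 and Snap23 for Slco1b2 with 0.95 and 0.94. Cep120 and Tti1 were most like Abcb4 with 0.90 and 0.90, and E2f6 and Fads2 most like Slco1a1 with 0.89 and 0.87. Slco1b2 itself was the second most like Abcc2. Abcd3 and Aggf1 came next to Abcg2 with 0.86 and 0.84, Ttc13 and Fbxw2 to Abcc3 with 0.865 and 0.863, Adk and Asl to Slco1a4 with 0.81 and 0.80, Tmem201 and Miga2 to Slco2b1 with 0.81 and 0.80, and Rbm33 and Cfap20 to Abcg8 with 0.81 and 0.78. Fam98c and Slx1b, most like Abcg5 with 0.94 and 0.94, fell to 0.78 and 0.74 without the libraries that stood apart. The other values kept within 0.05 of these over the 22 libraries. Ranks moved more for some. Among all tested genes over the 22 libraries, Cep120 was at rank 30, Aggf1 at 26 and Miga2 at 12. Rpa1, E2f6 and Fbxw2 were at rank 1.

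How far the differences hung on the scaling and on the libraries was read for each transporter and set. The fall of Abcg5 in set 2 passed under each scaling and choice of libraries plotted, and its size ran from -0.73 to -0.99. That of Slco1a1 in set 4 kept its sign in each but did not pass with quantile normalization or TPM scaling. Abcc2, Abcg2 and Slco1b2 were higher in L2d13 than in WT livers of set 4 under each scaling but lower without the 6 libraries, with no call either way. Values of set 4 without the 6 libraries rest on 2 WT libraries.

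**Figure D5:**
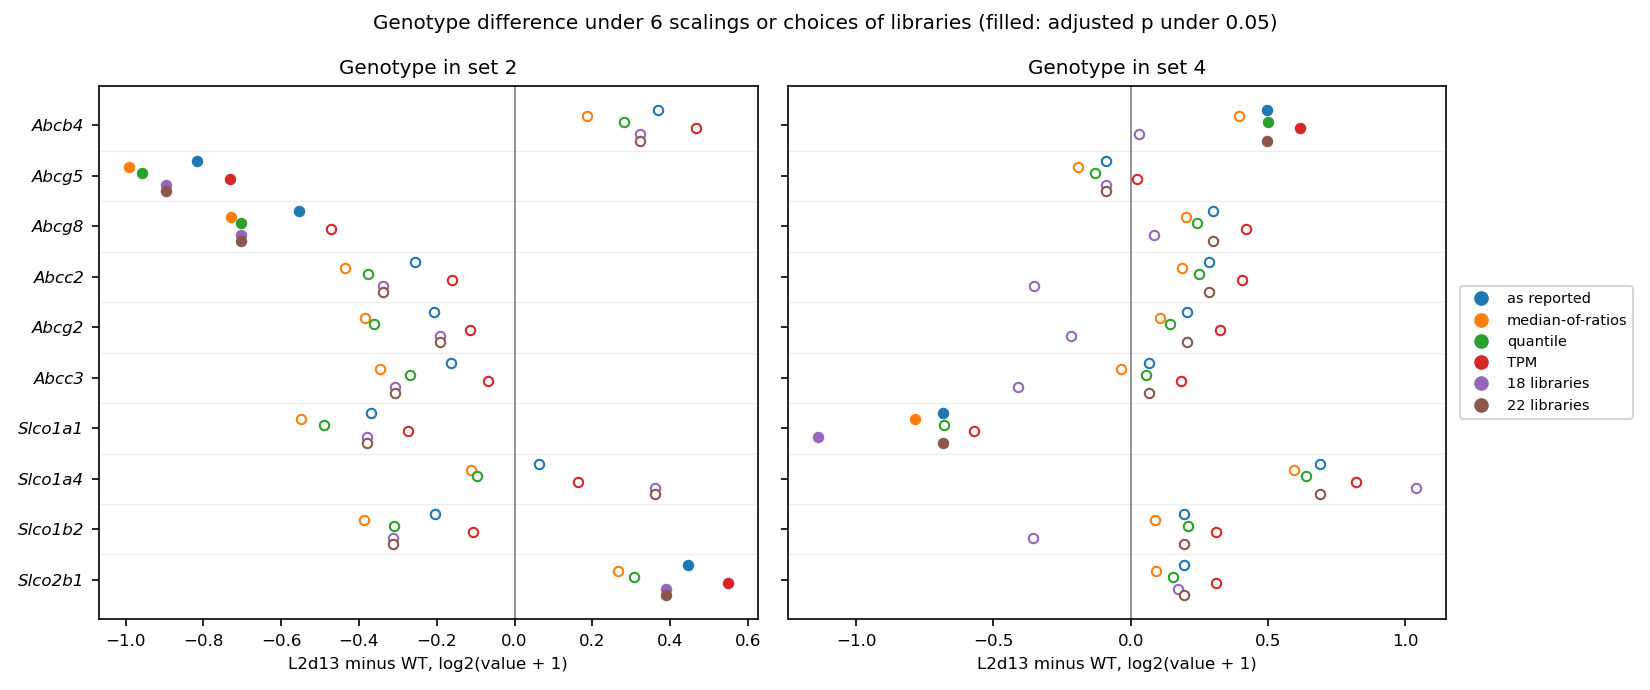
Difference of log2(value + 1), L2d13 minus WT, of each transporter in set 2 (left) and set 4 (right) as reported, under 3 other scalings, and without the 6 libraries in which 1 fragment is worth more FPKM (18 libraries) or the 2 that stood apart (22 libraries); filled marks have an adjusted p under 0.05. In set 2 Abcg5 is filled in all 6, from -0.73 to -0.99, and in set 4 Abcb4 moves from 0.50 as reported to 0.03 in 18 libraries.

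Lists of related genes were counted over both sets, where 25.9% of all tested genes rose and 4.86% fell, with a median log2 difference of 0.12. Of 18 nuclear receptors and other factors known to control these transporters, 5 rose, a share near that of all genes, and 4 fell, with a median of -0.11 (with median-of-ratios scaling 1 was higher and 8 were lower). Nr1i2, the pregnane X receptor that induces Slco1a4 in mice, averaged 34.1 ± 6.92 FPKM in L2d13 livers and 54.9 ± 15.5 FPKM in WT livers (SD, 12 libraries each), a log2 difference of -0.65 ± 0.13. Bcl6, a repressor linked to the male pattern of liver genes, fell by 1.59 ± 0.32 and Ahr, the dioxin receptor, by 0.44 ± 0.10. Within sets, both were called in set 4 (-2.45 and -0.71) but not in set 2 (-0.73 and -0.18). Among the 5 that rose were Nr1h3 by 0.26 ± 0.07 and Rxra by 0.39 ± 0.12, neither called with median-of-ratios scaling. Beside the fall of Slco1a1, 4 of 10 male-biased genes fell and 0 rose, with a median of -0.42 (4 fell in set 2 alone and none was called in set 4, where Slco1a1 was), and 1 of 4 tested female-biased genes rose, which was Cyp17a1. Elovl3 and Hsd3b5 among the male-biased genes fell by 1.12 ± 0.27 and 1.68 ± 0.41, and Gstp1 and Cyp4a12a by 0.72 ± 0.16 and 0.49 ± 0.17.

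Genes that share a known regulator with the sterol exporter or the anion pumps were counted too. Of 9 targets of LXR, the oxysterol receptor that induces Abcg5 and Abcg8, 5 rose and 2 fell (median 0.25), but none was called higher and 3 lower with median-of-ratios scaling. Scd1 and Srebf1, which drive fatty acid synthesis, fell by 1.17 ± 0.27 and 0.60 ± 0.16. Within sets, Scd1 was called in set 4 (-1.63) but not in set 2 (-0.71), and Srebf1 in set 2 (-0.91) but not in set 4 (-0.29). The sphingomyelinase-like Smpdl3a and the LDL receptor ligase Mylip rose by 0.71 ± 0.21 and 0.52 ± 0.17. Of 9 targets of PXR and CAR 1 rose and 2 fell (median -0.22), with Por at 0.80 ± 0.12, Gstt1 at -0.70 ± 0.16 and Cyp2c29 at -0.71 ± 0.24. The sets differed here, with a median of -0.47 in set 2 and 0.01 in set 4 (0.16 and 0.08 for all genes). Cyp2c29 was at -1.40 in set 2 and -0.02 in set 4, and its call over both sets was lost with TPM scaling. Of 16 targets of NRF2, which induces Abcc2 and Abcc3, 9 fell and 1 rose (median -0.27). Gstm3, Gclc, Gsta2 and Gstm1, all of glutathione metabolism, fell by 1.66 ± 0.19, 1.11 ± 0.15, 0.87 ± 0.13 and 0.98 ± 0.15. Of 12 targets of PPARA, which induces Abcb4 in mice, 6 rose and 1 fell (median 0.53), with Cyp4a10 at 1.07 ± 0.14, Cpt1a at 0.94 ± 0.13, Ehhadh at 1.47 ± 0.32 and Vnn1 at 0.71 ± 0.16. The 1 that fell was Pdk4, at -0.99 ± 0.31. Without the 6 libraries 3 of these 12 rose, and Ehhadh and Vnn1 were not called.

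Other transporters of the same cargo differed in both directions. Of 16 other transporters of anions, cations and bile salts 4 fell and 1 rose (median -0.01). Slc22a30, an organic anion transporter family member, averaged 30.4 ± 5.79 FPKM in L2d13 livers and 62.4 ± 12.1 FPKM in WT livers (SD, 12 libraries each), a log2 difference of -1.01 ± 0.12. Its relatives Slc22a28 and Slc22a7 fell by 0.87 ± 0.19 and 0.94 ± 0.24, while Slc22a3, an organic cation transporter, rose by 0.40 ± 0.09. Of 20 other genes of sterol and phospholipid transport 5 rose and 0 fell (median 0.12), a share and a median near those of all genes (with median-of-ratios scaling 2 were higher and 1 lower). Npc1, which moves cholesterol out of lysosomes, averaged 32.1 ± 5.10 FPKM in L2d13 livers and 20.1 ± 3.86 FPKM in WT livers, a log2 difference of 0.65 ± 0.10. Pctp, a phosphatidylcholine carrier, Abca1, the cholesterol exporter of HDL formation, and Mttp, which loads lipid onto apolipoprotein B, rose by 0.61 ± 0.14, 0.48 ± 0.16 and 0.34 ± 0.12. Of 12 genes that anchor or traffic canalicular transporters 3 rose (Stx3, Myo5b, Vipas39) and 1 fell, the scaffold Slc9a3r1 by 0.43 ± 0.12, but with median-of-ratios scaling 0 rose and 3 fell. Of 6 genes of bilirubin and haem breakdown 2 fell, Gstm1 and the biliverdin reductase Blvrb by 0.47 ± 0.16.

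Among the other ABC genes 7 of 25 tested rose, a share near that of all genes, and 2 fell (median 0.21), but with median-of-ratios scaling 1 rose and 2 fell. Abcb8 of mitochondria rose by 0.37 ± 0.07, Abce1 and Abcf2, which act on ribosomes and not as transporters, rose by 0.39 ± 0.09 and 0.41 ± 0.12, and the bile salt pump Abcb11 fell by 0.39 ± 0.11. The closest relatives of Abcb4, Abcb1a and Abcb1b, had 0.291 and 0.209 FPKM on average in L2d13 livers and 0.308 and 0.190 FPKM in WT livers, and were not tested. Of 8 other Slco genes measured, 1 passed the filter, and it was not called.

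Markers of other liver cells were counted as well, beside the 25.9% of all tested genes that rose over both sets. The shares of stellate and Kupffer cell markers that rose over both sets lie near it. Of 5 markers of sinusoidal endothelium 4 rose in L2d13 livers over both sets. Only 1 did so with median-of-ratios scaling, with quantile normalization or without the 6 libraries. The sum of the 5 ran from 71.1 to 145 FPKM in L2d13 livers of set 2, against 27.5 to 78.5 FPKM in WT livers. In set 4 it ran from 28.3 to 64.7 FPKM in L2d13 livers, against 19.45 to 64.4 FPKM in WT livers. Of 4 tested stellate cell markers 1 rose over both sets (all 4 with TPM scaling) and 3 in set 2, where the sum of the list ran from 114 to 227 FPKM in L2d13 livers, against 65.4 to 122 FPKM in WT livers. In set 4 it ran from 55.0 to 92.9 FPKM in L2d13 livers, against 56.1 to 80.6 FPKM in WT livers. Of 6 Kupffer cell markers 2 rose over both sets (none with median-of-ratios or quantile scaling or without the 6 libraries), with a sum from 48.7 to 232 FPKM in L2d13 livers and from 29.4 to 156 FPKM in WT livers. Of 3 enterocyte genes measured, Fabp2 rose, with 95.5 ± 25.9 FPKM in L2d13 livers and 50.1 ± 8.31 FPKM in WT livers (SD, 12 libraries each), while Anpep was not called and Vil1 lay below the filter. None of the 3 tested cholangiocyte markers was called over both sets. No measured marker of any of these lists was at 0 in all libraries. The part of these cell types in the differences of the transporters was not tested. In bulk liver, fewer cells of a type and less RNA per cell cannot be told apart.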

How the data were processed

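RNA of mouse liver was taken up in TRIzol and read on a BGISEQ-500 sequencer, per the labels' protocols. The submitters' processing notes name HISAT, Bowtie2, RSEM (no version is given for any) and GRCm38.p5. The FPKM values were computed by the authors and used as deposited. Read totals cannot be had from them, so depth is unknown, and their sums ran from 550260 to 722980 per library. Columns of no sample numbered 0. RefSeq (GRCm38.p6) gave symbols for 18040 gene identifiers and none for 131.

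Testing was limited to genes that reached an FPKM of 1 in 6 or more libraries. Values were turned into log2(FPKM + 1), and limma 3.58.1 (R 4.3.3) was run on them with variances that follow the mean, in an additive fit of set and genotype and in a fit with 1 mean per group for the genotype within sets and its difference between sets. Tests were two-sided, with Benjamini-Hochberg adjustment within each contrast and a threshold of 0.05. The pseudocount of 1 understates changes of low genes. The procedure was tested on simulated data. Tables were made in Python 3.11.15 (pandas 2.3.3; numpy 2.4.6; scipy 1.17.1) and plots in matplotlib 3.10.9.

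The members, the gene lists and the rule for naming genes were chosen with earlier results of these data known. All 10 members are named, and up to 4 called genes of smallest p from each pathway list and family. So are the 2 tested genes most like each member, with predicted genes and clone names passed over. Some genes, such as Nr1h3 and Rxra, are named beyond this rule. The value of 1 fragment in a library was estimated from 372 low genes (293 kept, 131 to 171 per library), as the step that best turned its values into whole multiples of the steps given by the other 23 libraries. This estimate was settled after several others had been tried, which ranked libraries differently, and with an earlier split of the libraries in view. The 6 highest libraries were left out as an alternative, and with 3 other minimums on low values the same 7 libraries came highest. The highest 6 were less settled. At a minimum of 0.06 they held 5 of the 6, with L2d13 set 4 replicate 11 (1.047) above WT set 4 replicate 12 (1.043). Other settings were a pseudocount of 0.1, no filter, a filter at FPKM 5, median-of-ratios, quantile and TPM scaling, each library left out in turn and the replicate number as a block. Chosen after seeing the data were the fits without the 2 libraries that stood apart and without the 7. 1 gene that the naming rule picked and 1 motif searched are not reported here.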

Additional observations from a re-analysis of the deposited data

Results flagged for a closer look

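Abcg5 was far above the rest of its group in 2 libraries. In L2d13 set 2 replicate 3 it had 49.0 FPKM, and the gap to the next library was 0.829 of the whole range of the group. In WT set 2 replicate 6 it had 65.7 FPKM, with a gap of 0.651 of the range. Both exceed Dixon's 95% critical value for 6 libraries, which chance alone passes in about 1 of 20 groups, and 40 groups were examined. Both are the libraries that stood apart from the other 22. In the L2d13 library the summed markers of cholangiocytes (123 against 13.1 to 26.9 FPKM in the rest of its group), sinusoidal endothelium (145 against 71.1 to 84.2 FPKM), stellate cells (227 against 114 to 138.5 FPKM) and erythroid cells (2837 against at most 1074 FPKM) were also above the rest, and those of hepatocytes were below (27700 against 46490 to 55250 FPKM). In the WT library those of cholangiocytes (74.5 against 11.5 to 26.9 FPKM) and stellate cells (122 against 65.4 to 98.2 FPKM) were above the rest. Abcg8, which has a start site beside that of Abcg5, was not past the critical value in either group. The part of these markers in the Abcg5 values was not tested.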

How the results depend on the processing

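Below, "18 libraries" means those left without the 6 in which 1 fragment is worth more FPKM, and each percentage is the share of tested genes called by limma (10532 genes, or 18171 with no filter and 6727 with a filter at FPKM 5). Between the genotypes over both sets 30.8% were called as reported, against 17.6% with no filter, 19.5% in the 18 libraries and 19.9% without the 7 libraries of highest value of 1 fragment. In set 2 it was 15.1%, against 8.13% with no filter, 7.24% with median-of-ratios scaling, 7.85% with quantile normalization and 7.66% with the replicate block. In set 4 it was 13.3%, against 6.58% with no filter, 4.93% in the 18 libraries, 4.77% without the 7, 6.45% with the replicate block and 24.9% without the 2 that stood apart. For the difference between sets it was 0.152% (16 genes), against 0.033% (6 genes) with no filter, 0.0855% (9 genes) with the replicate block, 0.636% in the 18 libraries and 0.598% without the 7, and 9 genes were called with a filter at FPKM 5. Between sets it was 6.09% (641 genes), against 3.52% with no filter, 3.02% with median-of-ratios, 2.58% with quantile, 10.98% with TPM, 1.07% in the 18 libraries and 0.75% without the 7, and 295 genes were called with a filter at FPKM 5. With single libraries left out the shares ran from 25.9% to 36.5% over both sets, from 9.23% (without WT set 2 replicate 4) to 17.3% in set 2, from 7.91% (without WT set 4 replicate 9) to 23.1% (without WT set 4 replicate 8) in set 4, from 0.057% to 0.18% for the difference and from 2.92% (without WT set 4 replicate 11) to 13.7% (without WT set 4 replicate 8) between sets. In set 4 L2d13 replicate 9 and WT replicates 10 and 11, each left out, gave 8.64%, 8.74% and 7.99%. Other single libraries whose omission moved a share by over 1.5 times were, for the difference, L2d13 set 2 replicates 1, 2 and 4, L2d13 set 4 replicates 7, 8 and 12, WT set 2 replicates 3 and 5 and WT set 4 replicates 9 and 10, and, between sets, L2d13 set 2 replicates 1 and 2, L2d13 set 4 replicates 7, 8, 10, 11 and 12, WT set 2 replicate 2 and WT set 4 replicate 7.

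Of 490 values of single transporters under other settings, 422 kept direction and side of the threshold, 25 lost the call, 6 gained it and 37 changed sign. With single libraries left out these were 1129, 30, 4 and 37 of 1200. Changes of sign follow as log2 differences, and their cause was not tested. Over both sets, for the genotype, Abcc2 was at -0.1251 with median-of-ratios, -0.0649 with quantile, -0.3435 in the 18 libraries and -0.2937 without the 7. Abcg2 was at 0.0006 with a pseudocount of 0.1, 0.1056 with TPM and 0.0246 without the 2 that stood apart, Abcc3 at 0.0582 and Slco1b2 at 0.1021 with TPM. In set 2 Slco1a4 was at -0.1110 with median-of-ratios and -0.0973 with quantile. In set 4 Abcg5 was at 0.0235 with TPM and Abcc3 at -0.0362 with median-of-ratios. In the 18 libraries and without the 7, set 4 gave -0.3517 and -0.2153 for Abcc2, -0.2158 and -0.1688 for Abcg2, -0.4101 and -0.4138 for Abcc3, and -0.3567 and -0.2556 for Slco1b2. The difference between sets was -0.2951 and -0.2303 for Abcb4 and -0.1024 and -0.1062 for Abcc3 in these, and -0.0132 for Abcc2, -0.0239 for Abcg2 and -0.0452 for Slco1b2 in the 18. Between sets Abcg8 was at 0.0116 with median-of-ratios, 0.0021 with quantile, 0.1084 in the 18 libraries and 0.0842 without the 7, Abcc2 at 0.0323, 0.0043, 0.1035 and 0.1906, and Slco1b2 at 0.0545 without the 7. With single libraries left out, values ran over both sides of 0 for the genotype over both sets, from -0.0954 to 0.0846 for Abcc2 (below 0 in 7), from -0.066 to 0.0399 for Abcg2 (above 0 in 13) and from -0.08 to 0.0528 for Slco1b2 (above 0 in 11). They did so too in set 2 for Slco1a4, from -0.0985 to 0.2435 (below 0 in 4), in set 4 for Abcc3, from -0.0463 to 0.1743 (below 0 in 1), and between sets for Abcc2, from -0.1639 to 0.0033 (above 0 in 1).

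Samples with the same replicate number did not deviate together. Over the 12 pairs their correlation ran from -0.604 to 0.26 and exceeded 0.1 in 4, so the numbers do not pair the libraries. The replicate block lost the calls of Abcg5 over both sets (adjusted p = 0.102) and in set 2 (0.0593), of Abcg8 and Slco2b1 in set 2 (0.0686 and 0.0602) and of Slco1a1 in set 4 (0.0727), and called 2526 genes over both sets. With no filter the calls of Abcg5 over both sets (0.0621), Abcb4 in set 4 (0.0646) and Slco1a1 in set 4 (0.0635) were lost. Gained by leaving out WT set 4 replicate 8 were Abcb4 and Abcg2 between sets (adjusted p = 0.0197 and 0.0438), and Slco1a1 between sets by leaving out that library (0.0383), WT set 2 replicate 6 (0.0422) or both that stood apart (0.0228).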
